A study of Mus musculus with 12 samples.

Results

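Trp63 and Trp73, the genes of p63 and p73, were each represented by a single probe on 12 arrays of 2 colours. They were found by the gene annotation of the probes, and make up 2 of 6774 named genes. Primary skin keratinocytes of C57Bl/6NCr mice carried an adenovirus encoding deltaNp63alpha, or one encoding beta-galactosidase as the control, and RNA was taken 41 h after transduction. The cells had spent the last 24 h in 0.05 mM calcium, called low calcium here, or in 0.12 mM calcium, called high calcium, which starts their differentiation. Each array held both RNAs of 1 calcium level in 2 dyes, and each of 3 repeats per level had a forward array, with Cy5 on the deltaNp63alpha RNA, and a reversed array, with Cy3 on it. All groups therefore carried an adenovirus, and no array compared an infected with an uninfected culture or low with high calcium. The labels call the arrays technical repeats and name no separate animals or cultures, so p-values measure the spread between these hybridisations only. A ratio of 2 dyes gives no level, so the cell type could not be checked against keratinocyte markers.

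p63 and p73 are transcription factors of the p53 family and bind closely related DNA sites. Both genes have an upstream start, which gives TA proteins with an N-terminal transactivation domain, and an internal start, which gives deltaN proteins that lack it. deltaNp63alpha is the main p63 form of basal keratinocytes, where it maintains the proliferating layer and its adhesion genes, and deltaN forms can oppose p53 and TAp73 at shared targets. The series title names the question, whether dysregulated deltaNp63alpha lowers maspin expression that p73 mediates.

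The annotation of the Trp63 probe held 1 sequence accession and that of the Trp73 probe 4. Where these sequences lie within the transcripts is not given in the sources used here. It is therefore unknown whether the Trp63 probe detects the adenoviral RNA, the cells' own transcripts or both, and whether either probe separates TA from deltaN transcripts. The promoter table of RefSeq (GRCm38.p6) held 2 starts for Trp73 and was matched by gene ID. They are shown because a single Trp73 ratio may sum RNA from both. Each window runs 5′ to 3′ on the minus strand of chromosome 4, from 250 bases before the start to 50 bases after it, and the starts lie 42702 bases apart. Capitals mark matches to CNNG repeated after 6 bases, the core letters of the paired site that p53 family proteins bind. The motif, with N for any base, reads the same on both strands.
Trp73 upstream start, chr4:154139826-154140125: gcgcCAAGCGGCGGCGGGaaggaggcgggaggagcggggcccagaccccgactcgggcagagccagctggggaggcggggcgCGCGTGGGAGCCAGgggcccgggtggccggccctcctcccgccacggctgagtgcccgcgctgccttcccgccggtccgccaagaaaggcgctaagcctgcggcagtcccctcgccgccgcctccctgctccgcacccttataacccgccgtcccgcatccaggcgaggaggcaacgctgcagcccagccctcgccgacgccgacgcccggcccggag
Trp73 internal start, chr4:154097124-154097423: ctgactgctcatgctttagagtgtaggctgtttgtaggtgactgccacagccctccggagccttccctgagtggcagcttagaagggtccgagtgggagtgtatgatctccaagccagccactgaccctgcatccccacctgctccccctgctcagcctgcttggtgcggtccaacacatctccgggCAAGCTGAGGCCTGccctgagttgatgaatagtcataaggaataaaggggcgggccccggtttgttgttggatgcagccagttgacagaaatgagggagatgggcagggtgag
The upstream window had 77.7% G and C and 39 CpG pairs, and the internal window 57.7% and 6. The median over 32851 promoter windows of 300 bases was 52.7% G and C. The upstream window held 2 matches, at positions -246 and -168, and the internal window 1, at position -63. A match of this kind was in 70.2% of all windows, so it sets neither start apart and shows no binding.

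The direction of every ratio rests on a choice. Cy5 was taken as the numerator, which turns the signs of reversed arrays, and a pair value is the forward value minus the reversed value, divided by 2. Positive then means higher in the RNA labelled deltaNp63alpha. The order of the dyes is not stated. Reversed arrays, too, carry deltaNp63alpha as channel 2 in their labels, which favours keeping the deposited signs. As deposited, the forward and reversed arrays of a repeat correlated positively in 6 of 6 repeats (Pearson r across rows 0.120 to 0.712). In the direction used here, a treatment effect alone would make these correlations negative, and what made them positive was not tested. That direction is an assumption and is not settled. Its basis is the common Cy5 over Cy3 convention, and the title of the series, in which maspin is lowered. Rise and fall, higher and lower are used below for this direction. The other reading is called the kept-sign reading. The experiment IDs in the labels begin with 3 different digit groups, and the arrays were split here into 2 sets, the first group against the other two. The first set, low calcium repeat 1 together with repeats 1 and 2 of high calcium, had 7869 to 9096 measured probes of 9558 per array. The later set, the remaining 3 repeats, had 3366 to 6974. Low calcium repeat 2 alone has the middle digit group.

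The Trp63 probe was not called higher in RNA labelled deltaNp63alpha at either calcium level, and most of its values were below 0. It had a value on 9 of 12 arrays. As deposited, low calcium repeat 1 read -0.98 on the forward and 0.57 on the reversed array. High calcium repeat 1 read -0.77 and 0.41. In both repeats the deposited sign changed with the dye. High calcium repeat 2 read 0.00 on the forward and 1.02 on the reversed array, so its difference came from 1 array alone. Low calcium repeat 2 read -0.999 and -1.905, negative in both orientations. High calcium repeat 3 had a forward value alone, -1.71, and low calcium repeat 3 had none. After turning, 7 of the 9 values lay below 0, 1 was at 0.00, and the reversed array of low calcium repeat 2 stood alone at 1.905.

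**Figure D1:**
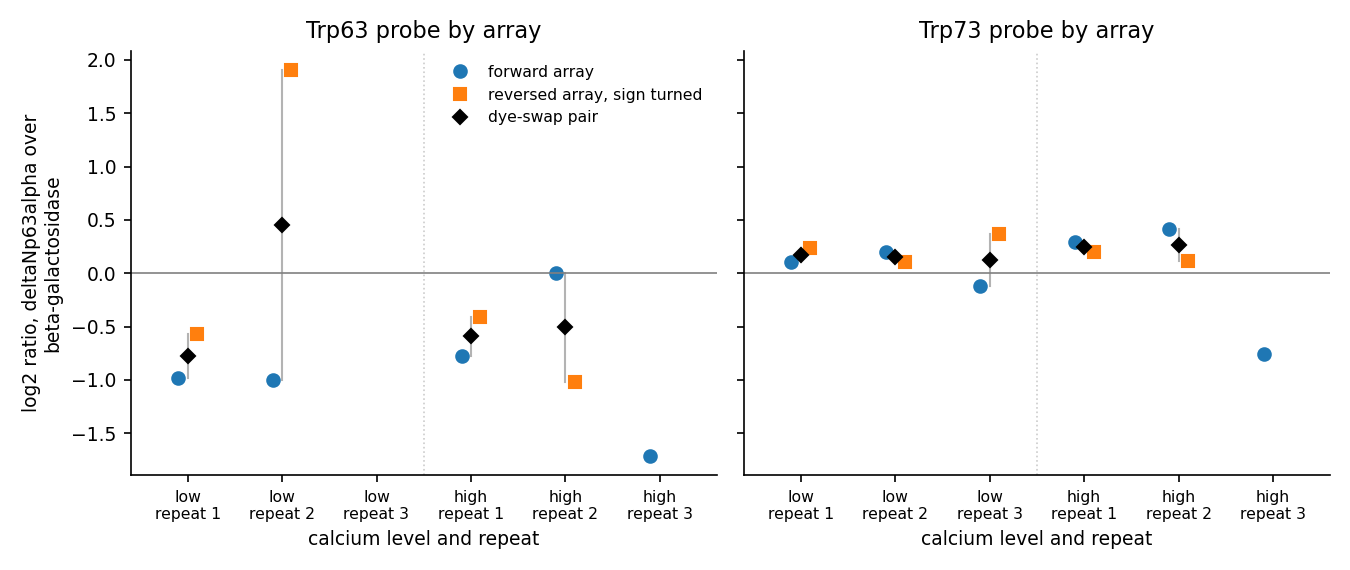
Log2 ratio of deltaNp63alpha over beta-galactosidase (vertical axis) for the Trp63 probe (left) and the Trp73 probe (right), by calcium level and repeat (horizontal axis). Circles are forward arrays, squares are reversed arrays with the sign turned, and diamonds are dye-swap pairs joined to their arrays by a line. Most Trp63 arrays lie below 0, with 1 reversed array at 1.905, and the 5 Trp73 pairs lie close together between 0.13 and 0.27.

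The place of Trp63 among all rows of an array showed the same split. Its turned value had 2.40% to 13.4% of rows below it on 7 of the 9 arrays, 50.4% on the forward array of high calcium repeat 2 and 88.2% on the reversed array of low calcium repeat 2. In pairs, Trp63 was at -0.78 in low calcium repeat 1, where 2.85% of 7893 rows were lower. It was at -0.59 in high calcium repeat 1, with 3.56% of 7185 rows lower. It was at -0.51 in high calcium repeat 2, with 13.9% of 8214 rows lower. In low calcium repeat 2 it was at 0.45, above 81.2% of 4552 rows. Of 3631 rows measured in these 4 pairs, 25% had 1 sign throughout (10.7% lower, 14.3% higher), and Trp63 was not among them. The low calcium pairs thus had opposite signs and the high calcium pairs lay close together.

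**Figure D2:**
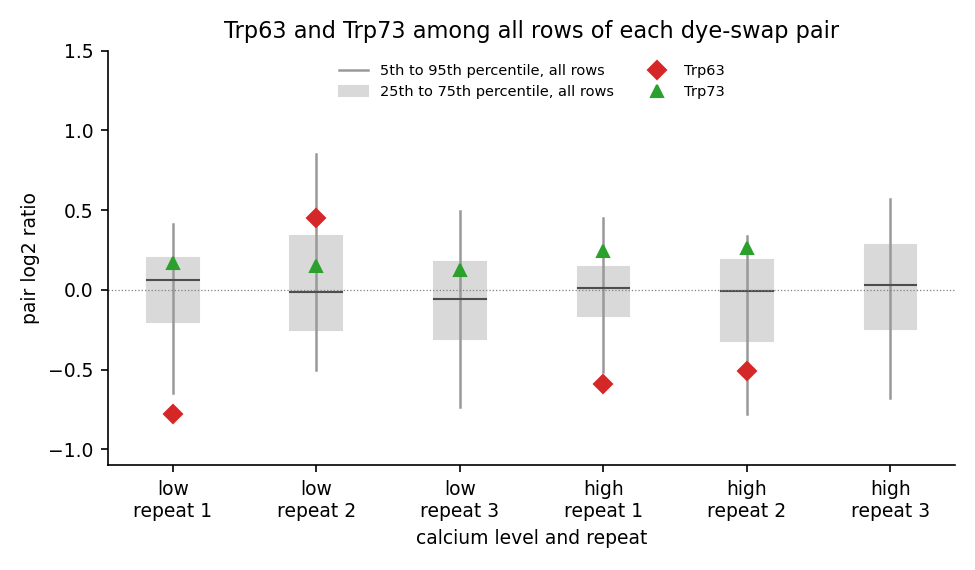
Pair log2 ratio (vertical axis) of Trp63 (diamonds) and Trp73 (triangles) in each of the 6 dye-swap pairs (horizontal axis), over the distribution of all rows in that pair (grey box, 25th to 75th percentile with the median as a line; grey line, 5th to 95th percentile). Trp63 lies near the lower end in low calcium repeat 1 (-0.78) and high calcium repeat 1 (-0.59), and Trp73 lies above the median in all 5 pairs that measured it.

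The fitted log2 ratio of Trp63 was -0.16 in low calcium (95% interval -0.72 to 0.40, n = 2 pairs; limma adjusted p = 0.919) and -0.55 in high calcium (95% interval -1.11 to 0.01, n = 2 pairs; limma adjusted p = 0.446). Neither member was called at either level, where 0.409% of 4646 rows in low calcium (0.387% lower, 0.0215% higher) and 1.39% of 7263 rows in high calcium (0.84% lower, 0.551% higher) were called. Each row had 1 spread for both levels in this fit, so the high calcium interval of Trp63 also carries the spread of its low calcium pairs. The SD was 0.87 between the low calcium pairs and 0.058 between the high calcium pairs. The Trp63 estimates and intervals depended on single repeats and on the array set. Without low calcium repeat 1 the low calcium value was 0.45 (95% interval -0.10 to 1.009), and with the array set as a block the high calcium value was 0.067 (95% interval -0.48 to 0.61). With the standard error that Trp63 had, a call needed a log2 ratio of about 1.36 in low calcium and 1.17 in high calcium. Under the kept-sign reading Trp63 was at -0.83 in low calcium and 0.16 in high calcium, and neither passed (limma adjusted p = 0.111 and 0.811). With the dyes in the opposite order all pair signs would turn together.

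Within the first array set the 3 Trp63 pairs had the same sign. Taken as 1 mean over both calcium levels, Trp63 was 1.54-fold lower there (log2 -0.63, 95% interval -0.86 to -0.39, n = 3 pairs; limma adjusted p = 0.0352). Of 8037 rows, 4.31% passed that test (3.16% lower, 1.14% higher), and 23.7% of the 6699 rows with all 3 pairs were below 0 in each of them. With the levels kept apart in this set, Trp63 was at -0.78 in low calcium (n = 1 pair) and at -0.55 in high calcium (n = 2 pairs). Both passed in limma, in a fit where many more rows passed than in the main fit. The single low calcium pair is assumed in this fit to vary like the others. The high calcium value is that of the main fit, from the same 2 pairs, and did not pass in the main fit. Its standard error was 0.16 within the set and 0.25 in the main fit, whose spread also drew on low calcium repeat 2. The later set gave 1 Trp63 pair, that of low calcium repeat 2 at 0.45, and no test. These values were computed after the split between the sets was seen. The array sets differ in how many probes were measured, and the part of that in the Trp63 difference was not tested.

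Trp73 was slightly higher in RNA labelled deltaNp63alpha in every pair that measured it, by an amount that did not pass the test. It had a value on 11 of 12 arrays. Its forward values were 0.10, 0.20 and -0.12 in low calcium repeats 1 to 3 and 0.29, 0.42 and -0.76 in high calcium repeats 1 to 3. Its reversed values as deposited were -0.24, -0.10 and -0.37 in low calcium repeats 1 to 3 and -0.20 and -0.12 in high calcium repeats 1 and 2. All 5 reversed arrays were below 0 as deposited, and 4 of 6 forward arrays were above 0. Low calcium repeat 3 was below 0 in both orientations as deposited, so its arrays disagreed in sign after turning. The high calcium repeat 3 forward value, -0.76, stood far from the others and had no reversed partner.

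The 5 Trp73 pair values were 0.17, 0.15 and 0.13 in low calcium repeats 1 to 3 and 0.25 and 0.27 in high calcium repeats 1 and 2, a mean of 0.19 ± 0.06 (SD, n = 5 pairs). The sign was the same in 5 of 5 pairs. Of the 2088 rows measured in these 5 pairs, 15% had 1 sign throughout (6.56% above 0, 8.48% below 0), so such agreement was not rare. In size the pair values were ordinary: 30.0% to 73.1% of rows lay further from 0 in the same pair. The component that both orientations share was small for Trp73, -0.24 to 0.15, against -1.45 to 0.51 for Trp63. The Trp73 value of -0.24, that of low calcium repeat 3, was larger in size than the pair value there, 0.13.

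The fitted Trp73 log2 ratio was 0.15 in low calcium (95% interval -0.15 to 0.45, n = 3 pairs; limma adjusted p = 0.825) and 0.26 in high calcium (95% interval -0.12 to 0.63, n = 2 pairs; limma adjusted p = 0.667). As folds, the intervals ran from 0.898 to 1.37 and from 0.922 to 1.55. A call would have needed a log2 ratio of about 0.724 in low calcium and 0.767 in high calcium. The mean of both levels, added after the 5 like signs were seen, was 0.20 (95% interval -0.04 to 0.44; limma adjusted p = 0.448), where 2.52% of 4209 rows passed. With the unpaired forward array of high calcium repeat 3 kept, the high calcium value was -0.083 (limma adjusted p = 0.955). Under the kept-sign reading Trp73 was at -0.088 in low calcium and 0.098 in high calcium.

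**Figure D3:**
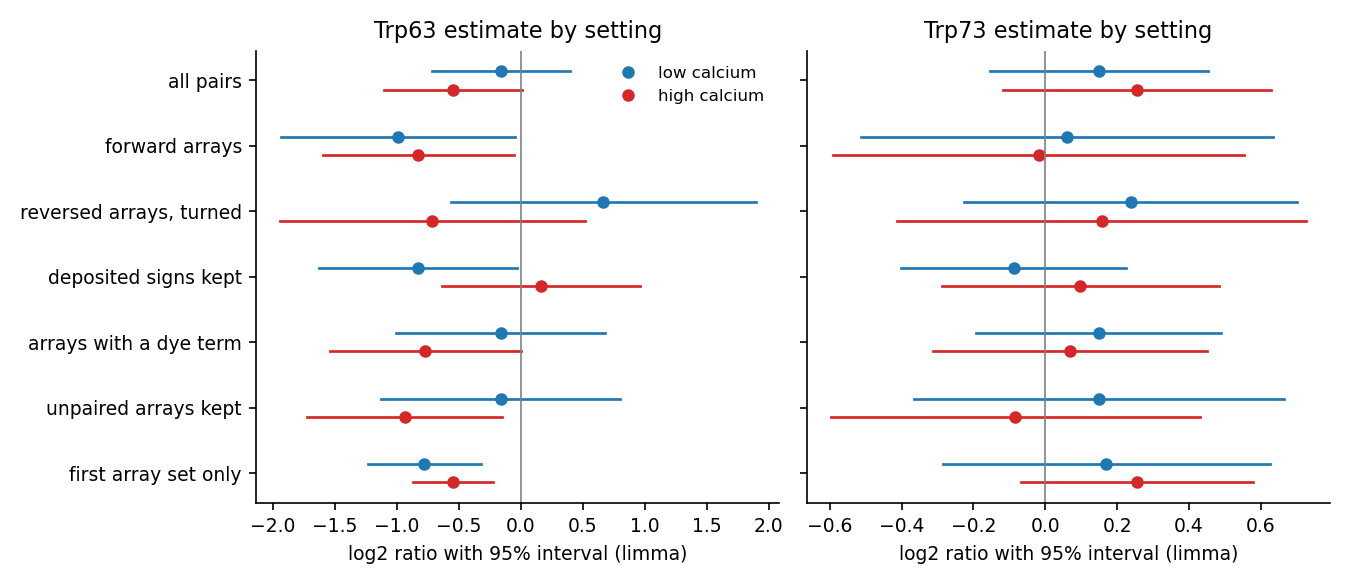
Fitted log2 ratio (points) with its 95% limma interval (lines) on the horizontal axis for Trp63 (left) and Trp73 (right; the scales differ), in low calcium (blue) and high calcium (red), by the way the arrays were combined (vertical axis). Trp63 runs from -0.99 on low calcium forward arrays to 0.67 on low calcium reversed arrays, and the Trp73 interval holds 0 in each setting shown.

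Neither gene was shown to respond differently at the 2 calcium levels. High minus low calcium was -0.39 for Trp63 (95% interval -1.18 to 0.40; limma adjusted p = 1.000) and 0.11 for Trp73 (95% interval -0.38 to 0.59; limma adjusted p = 1.000). Of 4209 rows 0 passed this test in limma, and 107 had an unadjusted p under 0.05. The high calcium pairs of both genes all came from the first array set, and the low calcium pairs from both sets. Array set and calcium level therefore cannot be fully told apart in these differences. The Trp63 difference turned on which low calcium repeat, and so which array set, was used. Without repeat 2 it was 0.23 (95% interval -0.40 to 0.86), and without repeat 1 it was -1.002 (95% interval -1.68 to -0.32; limma adjusted p = 0.624). With the deposited signs kept the Trp63 difference was 0.99 and that of Trp73 0.19. The Trp63 interval reached 2.258-fold, so equal responses were not shown either.

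Set side by side in the same pairs, Trp63 lay below Trp73 by 0.95 on the log2 scale in low calcium repeat 1, by 0.84 in high calcium repeat 1 and by 0.77 in high calcium repeat 2, and above it by 0.30 in low calcium repeat 2. Over the 9 arrays that measured both, their turned values had a Pearson correlation of 0.398, and 0.153 as deposited. These points share arrays and dyes, so the correlation is a description only.

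The genes whose turned values were most like those of Trp63 over its 9 arrays, among 1734 genes measured on all of them, were Trappc6a (r = 0.986), Gosr2 (0.982), C9 (0.980), Fn3k (0.975) and D1Ertd471e (0.971). All 5 had their own most distant value on the same array as Trp63, the reversed array of low calcium repeat 2, and without it r was 0.856 to 0.939. The genes most like Trp73 over 11 arrays, among 1293 genes, were Krt4 (0.939), which encodes a keratin of internal stratified epithelia, Pipox (0.930), Krt79 (0.930), another keratin gene, Erlec1 (0.919) and Mme (0.909), which encodes the membrane peptidase neprilysin. All 5 had their most distant value on the forward array of high calcium repeat 3, as Trp73 did, and without it r was 0.512 to 0.778. Both sets thus share 1 extreme array with the member they resemble.

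Of 36 genes for proteins that bind, modify or degrade p53 family members, a list that holds Trp63 and Trp73 themselves, 22 were on the arrays. In low calcium 0 of 13 tested passed in limma, where 0.409% of all rows did, and in high calcium 0 of 21, where 1.39% of all rows did. At an unadjusted p under 0.05 there were 3 of 13 and 3 of 21, against 9.45% and 11.6% of all rows. Lists of this size give few or no calls at such shares. The list medians were 0.05 in low calcium and 0.00 in high calcium, against 0.02 and 0.01 over all rows tested. The smallest p-values in low calcium were those of Mdm4, a p53 inhibitor related to Mdm2 (-0.53, from pairs at -0.52 and -0.53), and Yap1, a coactivator that binds p73 (-0.47, from pairs at -0.43, -0.42 and -0.57). In high calcium they were those of Abl1, a kinase that acts on p73 (-0.64, from pairs at -0.76 and -0.53), and Runx1, a transcription factor (-0.63, from pairs at -0.72 and -0.54). None of these 4 passed (limma adjusted p = 0.324, 0.361, 0.167 and 0.170). In the first array set taken as 1 mean, 1 of 22 passed, Trp63 itself. With the levels kept apart in that set, Abl1 (-0.64) and Runx1 (-0.63) also passed in high calcium. Many more rows passed in that fit than in the main fit. On reversed arrays alone Yap1 passed in low calcium (-1.096, limma adjusted p = 0.0422), where 330 rows were called against 19 in the main fit.

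Among genes known as p63 targets in epidermis, Itgb1 and Cldn1 passed. Of 58 listed, 31 were on the arrays. In low calcium 1 of 20 tested fell (0.387% of all rows fell) and in high calcium 2 of 28 (0.84%). The list medians were 0.02 and 0.04, against 0.02 and 0.01 over all rows. Itgb1, the beta-1 integrin of basal adhesion, fell by 1.25 on the log2 scale in low calcium (pairs at -1.58, -0.86 and -1.30; limma adjusted p = 0.0130) and by 0.93 in high calcium (pairs at -0.87, -1.39 and -0.52; limma adjusted p = 0.0314). Under the kept-sign reading Itgb1 was at 0.86 and 0.49, and neither passed. Without high calcium repeat 2 the high calcium value was -0.69 (limma adjusted p = 0.275), and without low calcium repeat 1 the low calcium value was -1.08 (limma adjusted p = 0.0674). Cldn1, a claudin of the epidermal tight junction, fell by 1.33 in high calcium (pairs at -1.20 and -1.47; limma adjusted p = 0.0102), and its only low calcium pair read -1.52. Its kept-sign value was -0.21, not past the test. Cdh3, the P-cadherin of basal cells, was at -0.64 in low calcium (limma adjusted p = 0.180), and at 0.64 with signs kept. On reversed arrays alone Cdh3 passed in low calcium (-1.27, limma adjusted p = 0.0422), where 330 rows were called against 19 in the main fit. On forward arrays alone it was at -0.0003. In the first array set taken as 1 mean, 6 of 28 fell and 0 rose, against 3.16% and 1.14% of all rows.

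Of 40 genes listed as p53 family targets in cell cycle arrest and death, 25 were on the arrays. The list also holds targets with other roles, such as Serpinb5, Thbs1 and Tap1. In low calcium 2 of 18 tested fell (0.387% of all rows fell), Thbs1 and Serpinb5, and in high calcium 4 of 25 (0.84%). Cdkn1a was at -0.73 in low calcium and did not pass (limma adjusted p = 0.194). Serpinb5, the maspin gene, is among those that fell at both levels and in the first array set. Its fall is no finding, because the title was part of the basis for turning the signs. This list and that of epidermal p63 targets were written with earlier results of these data known, so their counts are descriptions only. The medians were -0.14 and -0.10, against 0.02 and 0.01 over all rows. Thbs1, which encodes thrombospondin, was at -1.099 in low calcium (limma adjusted p = 0.0450) and -1.39 in high calcium (0.0214). Its kept-sign values were 0.86, which also passed (limma adjusted p = 0.0385), and 0.14. The kept-sign reading called 763 rows in low calcium, against 19 in the direction used, so passing there was more common. Cdkn1a, which encodes the cell cycle inhibitor p21, was at -1.29 in high calcium (pairs at -1.04 and -1.54; limma adjusted p = 0.0102; 0.34 with signs kept). Casp8, an initiator caspase, was at -0.98 (pairs at -0.69 and -1.27; limma adjusted p = 0.0496; -0.66 with signs kept). In the first array set taken as 1 mean, 6 of 25 fell and 1 rose, Tap1, a peptide transporter gene (0.55, limma adjusted p = 0.0366).

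The Thbs1 call in low calcium was lost without low calcium repeat 1 (-0.86, limma adjusted p = 0.205), repeat 2 (-1.23, 0.0551) or repeat 3 (-1.21, 0.0520), and held when a high calcium repeat was left out. Without high calcium repeat 1 or 2, all rows shared 1 variance in the fit. With the array set as a block the high calcium calls of Cdkn1a (-1.16, limma adjusted p = 0.0872) and Thbs1 (-1.03, 0.181) were lost, while Itgb1 passed at both levels (-1.34 and -0.84). Cldn1 and Casp8 had pairs in the first array set only, so the block gave them no value. The Casp8 call was lost when rows with at least 1 pair were tested (limma adjusted p = 0.0512). On reversed arrays alone Itgb1 (-2.11, limma adjusted p = 0.00955) and Thbs1 (-1.96, 0.0140) passed in low calcium, and no named high calcium call did. On forward arrays alone no named call of these lists passed, and Itgb1 was at -0.38 and Thbs1 at -0.24 in low calcium. With unpaired arrays kept, Thbs1 in high calcium was at -0.58 and Cdkn1a at -0.47. None of these calls passed with unpaired arrays kept, arrays as replicates, a dye term, arrays on the same spread, or a trended and robust variance. Some values were the same there, as for Itgb1 in low calcium (-1.25) and Cldn1 (-1.33) with a dye term.

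Maspin is encoded by Serpinb5 and named in the title beside p73. Its direction here is no finding, because the title was part of the basis for turning the signs. In that direction Serpinb5 was at -1.02, -0.50 and -0.89 in low calcium repeats 1 to 3 and at -0.79 and -0.99 in high calcium repeats 1 and 2, opposite in sign to Trp73 in each of these 5 pairs. Of 2088 rows measured in these pairs, 8.48% were likewise below 0 in every one, so the opposite signs show no tie between the 2 genes. Its fitted value was -0.80 in low calcium (limma adjusted p = 0.04998) and -0.89 in high calcium (limma adjusted p = 0.0388). Under the kept-sign reading the values were 0.70 and 0.019, neither past the test. The low calcium call was lost without repeat 1 (limma adjusted p = 0.210) or repeat 3 (0.160). The high calcium call was lost with the array set as a block (-0.72, limma adjusted p = 0.291) and with unpaired arrays kept (-0.10, 0.968). Forward arrays gave -0.10 in low and -0.088 in high calcium, and reversed arrays gave -1.50 (limma adjusted p = 0.0328) and -0.91 (0.410).

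**Figure D4:**
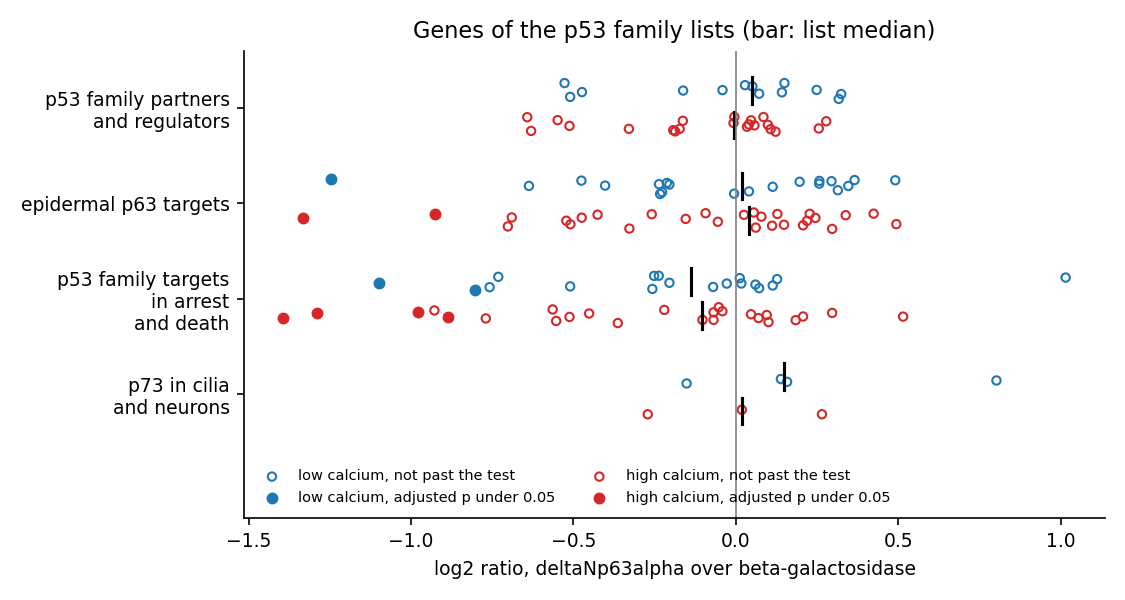
Log2 ratio of deltaNp63alpha over beta-galactosidase (horizontal axis) for every tested gene of 4 lists (vertical axis), in low calcium (blue) and high calcium (red). Filled points have a limma adjusted p under 0.05, open points do not, and black bars are list medians; in the direction used every filled point lies below 0, and the medians lie between -0.14 and 0.15.

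A list of genes tied to p73 in multiciliated cells and neurons had 4 of 13 members on the arrays. In limma 0 of 4 tested in low calcium and 0 of 3 in high calcium passed, and 0 had an unadjusted p under 0.05. With 0.409% and 1.39% of all rows called, and 9.45% and 11.6% at an unadjusted p under 0.05, so few genes can show little. Markers of fibroblasts, melanocytes, immune cells and endothelium, 29 in all with 18 on the arrays, gave 0 calls in limma among 13 tested in low calcium (1 at an unadjusted p under 0.05) and 15 in high calcium (0). Their log2 ratios ran from -0.18 to 0.38 and from -0.35 to 0.33.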

How the data were processed

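The deposited values are log ratios of 2 dyes for 9558 probes on 12 arrays. The values as deposited by the authors, centred near 0 on each array, were treated as log2, as their range allows, because no source names the base. How the authors scanned, corrected and filtered the spots is not stated here. Deposited array medians lay within 0.0005 of 0. Probes were named from the platform annotation (7457 with 1 symbol, 481 with several, 1620 unlisted), and 7368 symbols were updated by gene ID. Probes of 1 symbol were averaged, giving 8875 rows.

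Each array was centred on its median and turned as the report describes. Pairs with 1 array missing had no value. Both calcium levels were fitted together with limma 3.58.1 (R 4.3.3), at least 2 pairs per level tested, and p-values were adjusted by Benjamini-Hochberg over all rows (calls under 0.05). The number of arrays limits the precision. The procedure was tested on simulated data.

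The members and gene lists were chosen with earlier results of these data known. Named genes are both members, list genes past the test and the 2 of smallest p per list and level, the 5 genes most like each member by Pearson's r over its arrays, and Serpinb5. The lists of cilia and neuron genes and of other cell types are given as counts and ranges only, a departure from that rule. Alternatives changed orientation, replicate unit, missing partners, centring, scale, probe summary, filter, variance, blocks and repeats.

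Repeat numbers were not used to pair the calcium levels in the main fit. The deviations of same-numbered pairs correlated at -0.0931, -0.138 and 0.170. With 3 pairs per level, such values cannot exclude that same-numbered repeats share a culture, and the labels do not say.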

Additional observations from a re-analysis of the deposited data

Results flagged for a closer look

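Trp63 on the reversed array of low calcium repeat 2 stood apart from the other 3 low calcium arrays, at 1.905 after turning against -0.999 to -0.573. The gap made up 0.853 of the range of the 4 arrays. On that array the SD over all rows was 1.24, the widest of the 12.

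Trp73 on the forward array of high calcium repeat 3 stood apart from the other 4 high calcium arrays, at -0.7605 against 0.115 to 0.415, a gap of 0.745 of the range of 5 arrays. The array measured 3434 probes, and its partner gave no Trp73 value. In all, 10 groups of values were examined, and chance gives such a gap in about 1 of 20.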

How the results depend on the processing

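Neither member passed at either calcium level, nor for the difference, in the alternatives run, with the exception of fits within the first array set, where Trp63 passed in low calcium (-0.78) and high calcium (-0.55). Trp63 in low calcium was at 0.67 on reversed and -0.99 on forward arrays alone, at 0.45 within the later set, and from -0.78 to 0.45 with 1 repeat left out. Trp63 in high calcium was at 0.16 with the deposited signs kept and at 0.067 with the array set as a block, which takes the set shift from low calcium alone. Further below 0 than the main fit were unpaired arrays kept (-0.94), forward arrays (-0.83) and arrays on the same spread (-0.81). So were arrays as replicates (-0.78), a dye term (-0.77) and reversed arrays (-0.71). None of these passed. With 1 repeat left out Trp63 in high calcium was -0.59 to -0.51. The high minus low difference of Trp63 was 0.99 with the signs kept, 0.16 on forward arrays, 0.23 with the array set as a block and within the first set, and -1.002 to 0.23 with 1 repeat left out. Trp73 in low calcium was at -0.088 with the signs kept (0.14 to 0.16 with 1 repeat left out). In high calcium it was at -0.018 on forward arrays and -0.083 with unpaired arrays kept (0.25 to 0.27). Its difference was -0.079 on forward arrays, -0.080 on reversed arrays, -0.10 with arrays as replicates, -0.080 with a dye term and -0.23 with unpaired arrays kept (0.09 to 0.12). With the deposited signs kept 5 of 6 named list genes reversed in low calcium (Yap1 0.62, Itgb1 0.86, Cdh3 0.64, Thbs1 0.86, Serpinb5 0.70) and 4 of 8 in high calcium (Itgb1 0.49, Cdkn1a 0.34, Thbs1 0.14, Serpinb5 0.019). Mdm4 in low calcium and Abl1, Runx1, Cldn1 and Casp8 in high calcium did not. Yap1 reversed on forward arrays (0.15), and Mdm4 (0.75) and Abl1 (0.11) on reversed arrays. The mean of both levels of Trp63 passed on forward arrays (-0.91), within the first set and without low calcium repeat 2 (-0.66). The cause was not tested.

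The background counts moved more. Rows called in low calcium, 19 as reported, were 763 with the signs kept, 33 on forward and 330 on reversed arrays, 1 with arrays as replicates, 3 with a dye term, 0 with unpaired arrays kept, 0 with arrays on the same spread, 4 among complete rows, 48 with at least 1 pair, 0 with a trended and robust variance, 43 with the array set as a block, 265 and 8 within the sets, and 6 to 51 with 1 repeat left out. Rows called in high calcium, 101 as reported, were in the same order 0, 0, 1, 0, 16, 0, 1, 14 (complete rows), 0 (trended and robust), 35 (array set block), 598 and 17 (within the sets) and 33 to 151. With the repeat number as a block the counts were 42 in low and 77 in high calcium. All rows shared 1 variance in that fit, as they did within the later set and without high calcium repeat 1 or 2. Under the block Trp73 was at 0.15 and 0.24 and the difference of Trp63 stayed at -0.39, none past the test. The block gave no value for Trp63 at either level, as Trp63 has no pair of repeat 3, so no pairing result exists there. For the difference between levels, 0 as reported, 1 to 7 rows passed with at least 1 pair, under either block, within a set or without high calcium repeat 1 or 2. The members were not complete in all pairs, so that filter gave them no value.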
